A study of Mus musculus with 12 samples.

Results

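Potassium channel genes were followed in the arcuate nucleus (ARC) of female mice, a part of the mediobasal hypothalamus that controls feeding and reproduction. Members were all protein-coding genes whose symbol begins with Kcn followed by a family letter and a number. The annotation held 93 such genes, and 82 of the 16640 genes in the deposited table were among them. The other 11 were not analysed here. The 82 members comprised 38 voltage-gated pore subunits, 13 inward rectifiers, 10 two-pore subunits, 8 calcium- or sodium-activated subunits and 13 auxiliary subunits.

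Potassium channels let potassium leave the cell down its gradient and so set the resting potential, end the action potential and space the spikes that follow it. In neurons of the ARC, several families link firing to transmitters and nutrients, such as the G-protein-gated GIRK channels opened by inhibitory receptors, the ATP-sensitive KATP channels that close when cellular ATP is high, and the M-type channels closed through muscarinic acetylcholine receptors. In astrocytes, inward rectifiers take up the potassium that active neurons release.

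Bulk RNA sequencing gave 12 libraries in 4 groups. Controls carried the floxed Esr1 fl/fl alleles, and mutants carried the same alleles with Cre recombinase driven by Nkx2-1 (Esr1 Nkx2-1Cre), which removes oestrogen receptor alpha (ERα) from cells with a history of that promoter and not from the ARC alone. All mice were 27 weeks old, on a mixed CD-1 and 129P2 background, and were fed chow or a high-fat diet (HFD) for 17 weeks. There were 3 control chow, 4 mutant chow, 2 control HFD and 3 mutant HFD libraries. The labels do not state whether 1 library is 1 animal, and replicate numbers follow the order of deposition, so p-values measure the spread between these libraries, which may in part be technical.

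Values are the authors' abundance signal, whose exact scaling was not given. It lies near the TPM scale and was taken as scaled by gene length, and levels were compared between genes on that reading. The sequencing depth is unknown. Column totals differed between libraries, and between 201 and 1768 genes were listed at 0, with most in mutant chow replicate 3, where 11 of the 82 members were at 0. Across members, Spearman's rho was 0.866 to 0.957 over 13 pairs of libraries within groups and 0.820 to 0.962 over 53 pairs between groups. Esr1 was 17.8, 7.29 and 19.8 in control chow and 6.05, 3.15, 1.93 and 1.65 in mutant chow, but 10.7, 16.6 and 11.9 in the libraries labelled mutant HFD against 15.3 and 22.4 in control HFD. Every direction drawn from the libraries labelled mutant HFD carries the limit that the deleted gene overlapped with controls there. All 7 markers of ARC neurons were above 0 in every library. Markers of other tissue varied widely between libraries: the summed signal of 3 markers of the suprachiasmatic nucleus ran from 79.7 to 3053, and that of 4 pituitary markers from 112 to 5581. In each sum 1 gene dominated, so the ranges do not measure the amount of tissue. Avp gave 3051 of the 3053 in mutant chow replicate 2, where Vip was 0.322 and Prok2 1.41. Cga gave 4802 of the 5581 in control chow replicate 2. In bulk tissue, fewer cells of a type and less RNA per cell cannot be told apart.

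The potassium channel genes were mostly of low or moderate level. Their median signal was 6.38, against 15.99 over all genes. Of the 82 members, 67 were above 0 in all 12 libraries, 35 had a mean of at least 10, 5 had a mean of at least 50 and 8 lay under 1. Together they summed to between 1097 and 1603 per library. Voltage-gated subunits made up 35.4% of that sum (range over libraries 30.8 to 38.0%), auxiliary subunits 24.8%, inward rectifiers 17.1%, two-pore subunits 14.7% and calcium- or sodium-activated subunits 8.06%.

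A few members carried much of the signal. The highest was Kcnj10, the main inward rectifier of astrocytes, with a mean of 113 ± 37.9 (SD, n = 12), which was 9.10% of the summed signal and above 91.6% of all genes. Next came Kcnk2, a two-pore leak channel opened by stretch and lipids, at 60.7 ± 9.64 (SD, n = 12). Kcnip1, a calcium-binding subunit of A-type channels, had a mean of 58.9, and Kcnh2, the ether-a-go-go related channel also known from the heart, had one of 56.1. Lower means included those of Kcnab2, a beta subunit of the Kv1 family, at 48.6, Kcne1l, a small auxiliary subunit encoded on the X chromosome, at 42.7, Kcnt1, a sodium-activated pore, at 42.4, Kcnip4 at 40.2 and Kcnc1, a fast delayed rectifier, at 36.1. The order within this run was not fixed, since the library values of neighbours overlapped.

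**Figure D1:**
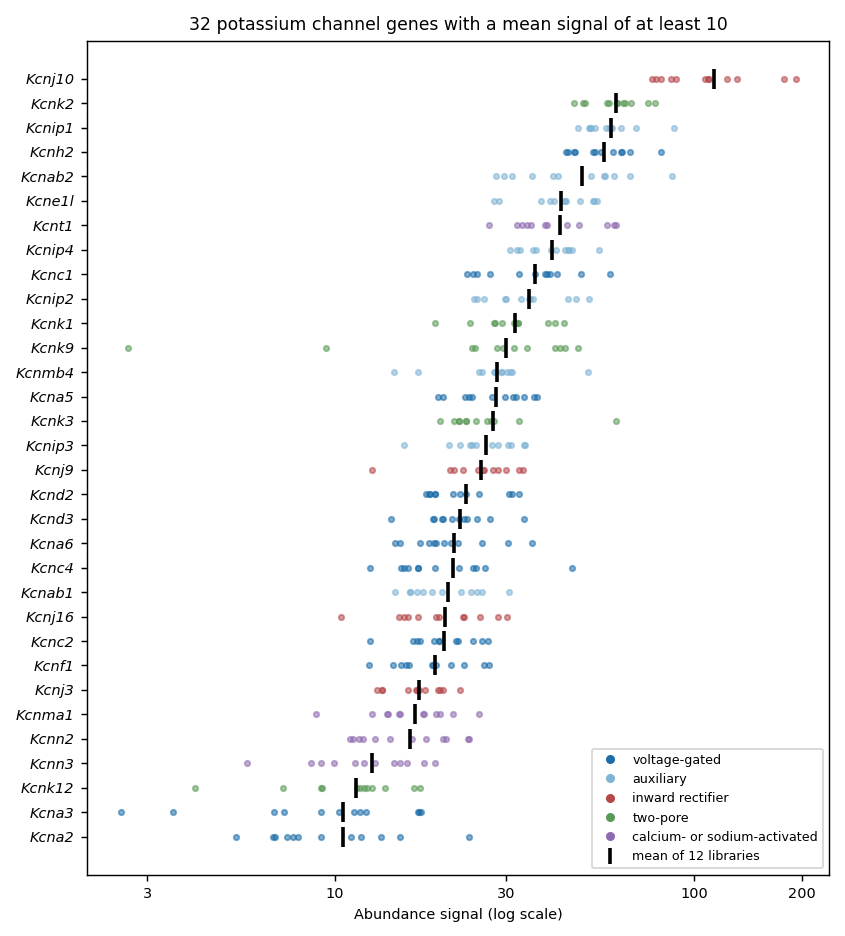
Abundance signal (log scale) of 32 potassium channel genes with a mean of at least 10, ordered by their mean, with 1 point per library coloured by class and a black bar at the mean of 12 libraries. Kcnj10 lies highest at 113, and neighbours in the order overlap.

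At the other end, 5 members did not reach a signal of 1 in at least 2 libraries and were not tested: Kcne2, Kcne4, Kcna7, Kcnj15 and Kcnv2. Kcne2, an auxiliary subunit also abundant in the choroid plexus, was 9.95 in control HFD replicate 1 and at most 0.960 in the other 11 libraries. That library also had the highest summed member signal. The remaining 77 members entered the fit across 15801 genes.

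The summed signal of the members did not separate the groups. It was 1353, 1097 and 1182 in control chow and 1184, 1351, 1155 and 1129 in mutant chow. On HFD it was 1603 and 1122 in controls and 1183, 1325 and 1270 in mutants. Control HFD replicate 1 had the highest sum of all 12 libraries while its partner, replicate 2, had the second lowest, so the spread within control HFD (mean 1363 ± 340, SD, n = 2) exceeded the distance between any group means.

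**Figure D2:**
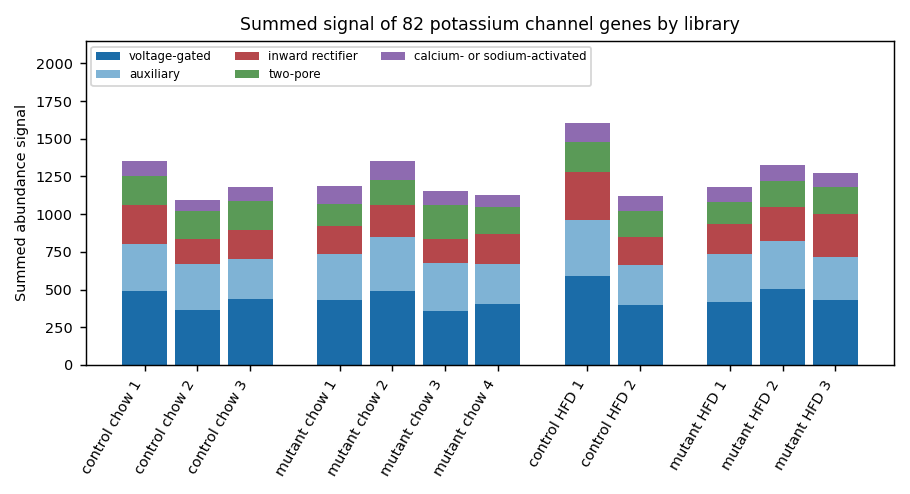
Summed abundance signal of the 82 potassium channel genes in each library, stacked by class, with 1 bar per library. Control HFD 1 reaches 1603, and the other 11 libraries lie between 1097 and 1353.

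Control HFD replicate 1 stood apart gene by gene as well. Of the 77 tested members, 25 (32.5%) had their highest value there, compared with 12.4% of all genes tested. Among them were Kcnab2 at 86.9, the delayed rectifiers Kcnc1 at 58.4 and Kcnc4 at 45.8, the Kv1 pore Kcna2 at 23.6, and Kcnj10 at 192. The summed signal of 6 pan-neuronal markers was also highest in this library, at 1526 against 869 to 1260 elsewhere, whereas the 7 ARC neuron markers had their lowest sum, at 2072 against 3579 to 8114. In contrast, 20 members (26.0%) were lowest in mutant chow replicate 3 and 17 (22.1%) in control chow replicate 2, compared with 17.7% and 19.2% of all genes. Pituitary markers summed to 5581 in control chow replicate 2 and to 112 in control HFD replicate 1. The part of these differences in marker signal in the results that follow was not tested, and values are given with and without these libraries where they decide a result.

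The genotype comparison on chow asked which channel genes differ with the loss of ERα, in the setting where mutant females of this line have high bone mass. No member passed the adjusted threshold of 0.05 (limma, Benjamini-Hochberg over all genes tested), and 0.019% of all genes did. At an unadjusted p under 0.05 there were 3 members of 77, all higher in mutants, a share that lay near the 4.34% of all genes at that level. The median log2 difference of the members was 0.01, equal to that of all genes (0.01), with 41 of 77 above 0. The groups did not overlap for 4 members, compared with 4.51% of all genes. The 3 named members were Kcnc2, Kcnh6 and Kcnu1.

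Kcnc2 (chromosome 10, 112271121 to 112467024, plus strand, GRCm38) encodes a Kv3 delayed rectifier that lets neurons fire fast. Its signal was 18.8, 12.6 and 17.3 in control chow and 24.2, 22.0, 25.7 and 19.5 in mutant chow. On HFD it was 26.7 and 21.7 in controls and 17.0, 19.5 and 16.5 in mutants. Mutants lay above all controls on chow and below both controls on HFD. The log2 difference between genotypes was 0.48 ± 0.20 (SE) on chow (limma, unadjusted p = 0.0355, adjusted p = 0.982). The interaction of genotype and diet (the genotype difference on HFD minus that on chow) was -0.91 ± 0.32 (SE; limma, unadjusted p = 0.0140, adjusted p = 0.999). Neither passed the adjusted threshold, and the sign held without each library in turn, at 0.32 to 0.59 for chow and -1.05 to -0.74 for the interaction.

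Kcnh6 (chromosome 11, 106008124 to 106034549, plus strand) is an ether-a-go-go related channel and a close relative of Kcnh2. It was 5.14, 2.05 and 5.10 in control chow and 6.90, 5.72, 12.4 and 7.43 in mutant chow. On HFD the values were 4.97 and 11.3 in controls and 6.51, 5.94 and 3.60 in mutants. The chow groups did not overlap, and on HFD the mutant values reached from below the lower control to between the 2 controls. Its log2 difference on chow was 0.86 ± 0.38 (SE; limma, unadjusted p = 0.0447, adjusted p = 0.982), and the interaction was -1.32 (limma, unadjusted p = 0.0469, adjusted p = 0.999). The interaction was -1.84 without control HFD replicate 1 and -0.80 without control HFD replicate 2.

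Kcnu1 (chromosome 8, 25849623 to 25937939, plus strand), best known as the alkaline-activated Slo channel of sperm, had the largest fold difference. Its signal was 1.01, 1.69 and 1.07 in control chow and 4.54, 5.66, 12.7 and 2.89 in mutant chow, a ratio of means of 5.13. On HFD it was 3.05 and 6.41 in controls and 5.15, 4.47 and 0 in mutants. Every chow mutant lay above every chow control, while the HFD groups overlapped and 1 mutant library was listed at 0. The log2 difference on chow was 1.57 ± 0.61 (SE; limma, unadjusted p = 0.0234, adjusted p = 0.982). For Kcnc2, Kcnh6 and Kcnu1 alike the highest mutant chow value came from replicate 3, the library with the most genes at 0. Without that library the Kcnu1 difference was 1.23, and without each library in turn the Kcnh6 difference was 0.52 to 1.03.

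**Figure D3:**
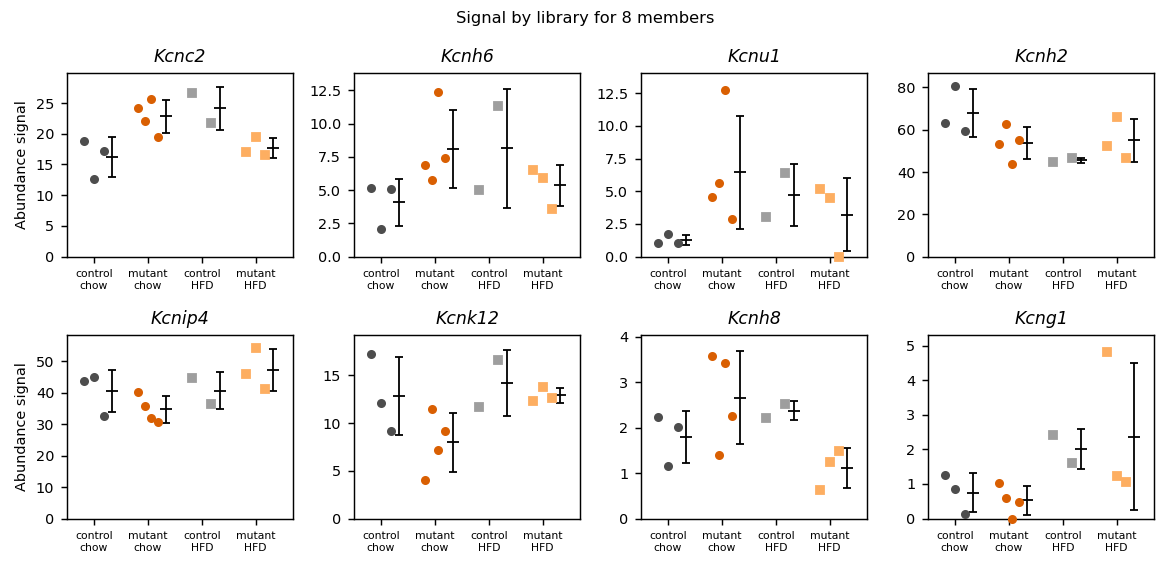
Abundance signal of 8 members in each library by group, with points for libraries (3, 4, 2 and 3 from left to right) and beside them the mean with 1 SD. Kcnc2 lies higher in mutants than controls on chow and lower on HFD.

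Because the deleted gene encodes a transcription factor, the DNA just upstream of the members was searched for the letters it is known to bind. RefSeq starts on GRCm38.p6 were on hand for 58 of the 82 members, with 82 start sites in all, and 250 bases upstream of each were read. The half-site GGTCA, or TGACC as it reads on the other strand, stood in 26.83% of member windows and in 35.24% of all windows (11577 of 32851). The palindrome GGTCANNNTGACC, which contains both half-sites, stood in 0 of 82 member windows and in 0.06392% of all windows. The windows of Kcnc2 and Kcnh6, members with an unadjusted genotype difference on chow, are given here because they show a window without the letters and one with them, from the plus strand with half-sites in capitals. The Kcnc2 window (chr10:112269767-112270016) precedes its most upstream RefSeq start, and none of its 4 windows holds a half-site. The Kcnh6 window (chr11:106007898-106008123) is cut to the 226 bases before the annotated gene and holds 1 half-site. A match describes letters and is not evidence of binding.
Kcnc2: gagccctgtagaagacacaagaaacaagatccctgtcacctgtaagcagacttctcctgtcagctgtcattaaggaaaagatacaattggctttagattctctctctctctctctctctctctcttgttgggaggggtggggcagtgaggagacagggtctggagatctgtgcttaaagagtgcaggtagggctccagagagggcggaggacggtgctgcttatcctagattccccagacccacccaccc
Kcnh6: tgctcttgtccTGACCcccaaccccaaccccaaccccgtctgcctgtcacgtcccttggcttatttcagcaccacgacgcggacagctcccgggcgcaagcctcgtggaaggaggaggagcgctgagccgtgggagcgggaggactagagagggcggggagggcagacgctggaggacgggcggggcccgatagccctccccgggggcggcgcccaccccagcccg

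With all libraries the 4 GIRK pore genes had small positive differences in chow mutants, and none passed even the unadjusted threshold. Kcnj3, the shared subunit of most neuronal GIRK channels, was 16.0, 13.5 and 13.1 in control chow and 13.5, 17.1, 16.9 and 22.3 in mutant chow, which overlap. Its log2 difference was 0.27 ± 0.21 (SE; limma, unadjusted p = 0.223), and those of the 4 genes ran from 0.13 for Kcnj9 to 0.39 for Kcnj5. Without control chow replicate 3 that of Kcnj9 was -0.26, and without control chow replicate 2 that of Kcnj6 was -0.32. In mutants on HFD, Kcnj5 had a difference from chow of -0.50 (limma, unadjusted p = 0.104), while the other 3 lay between 0.04 and 0.33. The interaction was below 0 in all 4 with all libraries, from -0.48 to -0.22, but that of Kcnj6 was 0.55 without control HFD replicate 1 and that of Kcnj9 was 0.01 without control chow replicate 3. Mean levels over the 12 libraries put Kcnj9 first at 25.5, followed by Kcnj3 at 17.2, Kcnj5 at 7.13 and Kcnj6 at 5.63, and the values of Kcnj5 and Kcnj6 overlapped.

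The KATP channel pairs the pore Kcnj11 or Kcnj8 with a sulphonylurea receptor, Abcc8 or Abcc9. Kcnj11 was 18.6, 8.36 and 15.5 in control chow and 10.6, 7.04, 0 and 8.15 in mutant chow. On HFD it was 8.74 and 10.7 in controls and 10.2, 10.2 and 7.80 in mutants. The chow groups overlapped, and the value of 0 came from replicate 3. The log2 difference on chow was -1.42 ± 0.68 (SE; limma, unadjusted p = 0.0570), which missed both thresholds, and without mutant chow replicate 3 it was -0.61. Its partner Abcc8 had a mean of 8.90 ± 1.35 (SD, n = 3) in chow controls and 17.8 ± 12.5 (SD, n = 4) in chow mutants, with single mutant values from 6.06 to 34.9 on either side of the controls. Kcnj8 and Abcc9, the pair typical of vascular mural cells, were low throughout, with means over all libraries of 0.921 and 0.713.

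**Figure D4:**
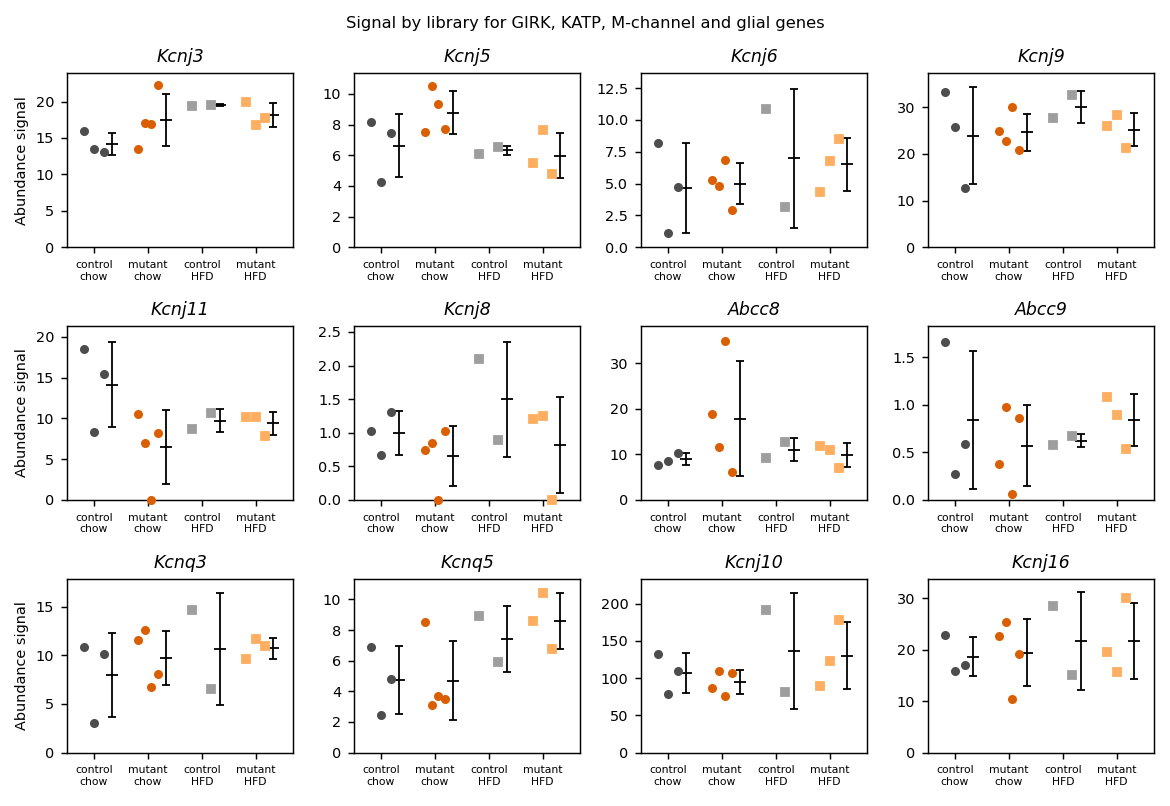
Abundance signal by library for the GIRK pores (Kcnj3, Kcnj5, Kcnj6, Kcnj9), the KATP pores and their receptors (Kcnj11, Kcnj8, Abcc8, Abcc9), 2 M-type subunits (Kcnq3, Kcnq5) and 2 glial rectifiers (Kcnj10, Kcnj16), with points for libraries and beside them the mean with 1 SD. Kcnj11 is listed at 0 in 1 mutant chow library.

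The diet comparison in mutants asked which channel genes differ after the HFD challenge in females of the mutant genotype. Esr1 was 10.7, 16.6 and 11.9 in the mutant HFD libraries and 1.65 to 6.05 in mutant chow, without overlap. The groups compared thus differed in Esr1 signal as well as in diet. No member passed the adjusted threshold (limma, Benjamini-Hochberg), and 0.019% of all genes did. Kcnip4, Kcng1 and Kcnk12 were higher and Kcnh8 was lower at an unadjusted p under 0.05, which is 4 of 77 members beside 5.37% of all genes. The groups did not overlap for 7 members, all higher on HFD, beside 7.99% of all genes in either direction. The median log2 difference was 0.08 over the members, with 52 of 77 above 0, and -0.02 over all genes. Without mutant chow replicate 3 the members' median was 0.02 and 42 of 77 were above 0.

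Kcnip4, a calcium-binding subunit that slows the inactivation of A-type channels, was 40.0, 35.7, 32.1 and 30.7 in mutant chow and 45.8, 54.3 and 41.2 in mutant HFD. In controls it was 43.6, 45.0 and 32.7 on chow and 44.7 and 36.3 on HFD. All HFD mutants lay above all chow mutants, 1 of them within the range of the controls and 2 above it. The log2 difference was 0.43 ± 0.18 (SE; limma, unadjusted p = 0.0343, adjusted p = 0.910). Kcnip4 shares exon sequence with a gene on the opposite strand (5730480H06Rik), and whether counting used strand was not given in the sources used here.

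Kcnk12, a two-pore subunit that gives little current alone, was 4.08, 11.5, 7.19 and 9.12 in mutant chow and 12.3, 13.8 and 12.7 in mutant HFD. The groups did not overlap, and controls ranged from 9.18 to 17.2 over both diets. Its log2 difference was 0.71 ± 0.32 (SE; limma, unadjusted p = 0.0487, adjusted p = 0.916), and 0.46 without mutant chow replicate 1. Kcnh8, an ether-a-go-go-like channel, was 3.58, 1.39, 3.42 and 2.26 in mutant chow and 0.625, 1.24 and 1.49 in mutant HFD. These groups overlapped, and the difference was -0.77 ± 0.34 (SE; limma, unadjusted p = 0.0419, adjusted p = 0.916).

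Kcng1 encodes an electrically silent subunit that forms channels only together with Kv2 pores, of which Kcnb2 averaged 3.13. Kcng1 was low, at 1.03, 0.593, 0 and 0.479 in mutant chow and 4.81, 1.24 and 1.07 in mutant HFD. In controls it was 1.27, 0.848 and 0.132 on chow and 2.43 and 1.62 on HFD. HFD values lay above chow values within each genotype without overlap, though by a narrow margin in mutants. Its difference in mutants was 1.02 ± 0.44 (SE; limma, unadjusted p = 0.0376, adjusted p = 0.916), and 0.54 without mutant HFD replicate 1. Averaged over genotypes it was 0.93 ± 0.34 (SE; limma, unadjusted p = 0.0183, adjusted p = 0.886).

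Averaged over both genotypes, no member passed the adjusted threshold for diet (limma, Benjamini-Hochberg), nor did any gene (0%). At an unadjusted p under 0.05 only Kcng1 and Kcnq5 were found, 2 of 77 beside 5.29% of all genes. The members nevertheless leaned upwards: 56 of 77 (72.7%) had a difference above 0 and their median was 0.16, whereas 46.5% of all genes were above 0. Without control HFD replicate 1 the count fell to 42 of 77 (54.5%) and the median to 0.03. By class, 29 of 36 voltage-gated, 11 of 12 inward rectifier, 6 of 8 calcium- or sodium-activated, 6 of 11 auxiliary and 4 of 10 two-pore subunits were above 0 with all libraries.

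Kcnq5 is a pore subunit of M-type channels. It was 6.92, 2.45 and 4.81 in control chow and 8.54, 3.08, 3.68 and 3.47 in mutant chow. On HFD it was 8.92 and 5.90 in controls and 8.56, 10.4 and 6.75 in mutants. HFD values were mostly higher, but mutant chow replicate 1 overlapped with HFD mutants and control chow replicate 1 with HFD controls. The averaged log2 difference was 0.72 ± 0.30 (SE; limma, unadjusted p = 0.0321, adjusted p = 0.886). Kcnq3, another M-type subunit, ranged from 3.01 to 14.7 over the 12 libraries, with all groups overlapping.

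The astrocyte rectifiers varied widely within groups. Kcnj10 (chromosome 1, 172341210 to 172374085) was 132, 78.1 and 110 in control chow, 86.2, 109, 76.4 and 107 in mutant chow, 192 and 81.0 in control HFD, and 89.3, 123 and 178 in mutant HFD. All 4 groups overlapped. Its averaged diet difference was 0.34 ± 0.24 (SE; limma, unadjusted p = 0.184), and 0.03 without control HFD replicate 1. Kcnj16, which joins Kcnj10 in one channel, was likewise highest in mutant HFD replicate 3 at 30.1 and control HFD replicate 1 at 28.4. The summed signal of 5 astrocyte markers was 1213 and 1161 in those 2 libraries and 601 to 1239 over all 12.

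In controls alone, diet gave no member past the adjusted threshold (limma, Benjamini-Hochberg), and 0% of all genes passed. Kcnh2 and Kcnc2 passed the unadjusted level, 2 of 77 members beside 3.54% of all genes. Kcnh2 was 63.2, 80.7 and 59.5 on chow and 44.5 and 46.4 on HFD, so the groups did not overlap. Its log2 difference was -0.55 ± 0.22 (SE; limma, unadjusted p = 0.0239, adjusted p = 0.998). In mutants Kcnh2 was 53.1, 62.5, 43.9 and 54.9 on chow and 52.2, 66.2 and 46.7 on HFD, which overlap. Kcnc2 was higher on HFD by 0.56 ± 0.24 (SE; limma, unadjusted p = 0.0398, adjusted p = 0.998), from the values given above.

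The control diet comparison rested on 1 library. There, 55 of 77 members (71.4%) were above 0 and the median was 0.18, but without control HFD replicate 1 only 28 (36.4%) were above 0 and the median was -0.14. Without replicate 2 instead, 61 of 77 were above 0 and the median was 0.46. The 2 control HFD libraries thus gave opposite directions for the members as a whole. The groups did not overlap for 7 members higher and 3 lower on HFD, where 14.1% of all genes in either direction did so.

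**Figure D5:**
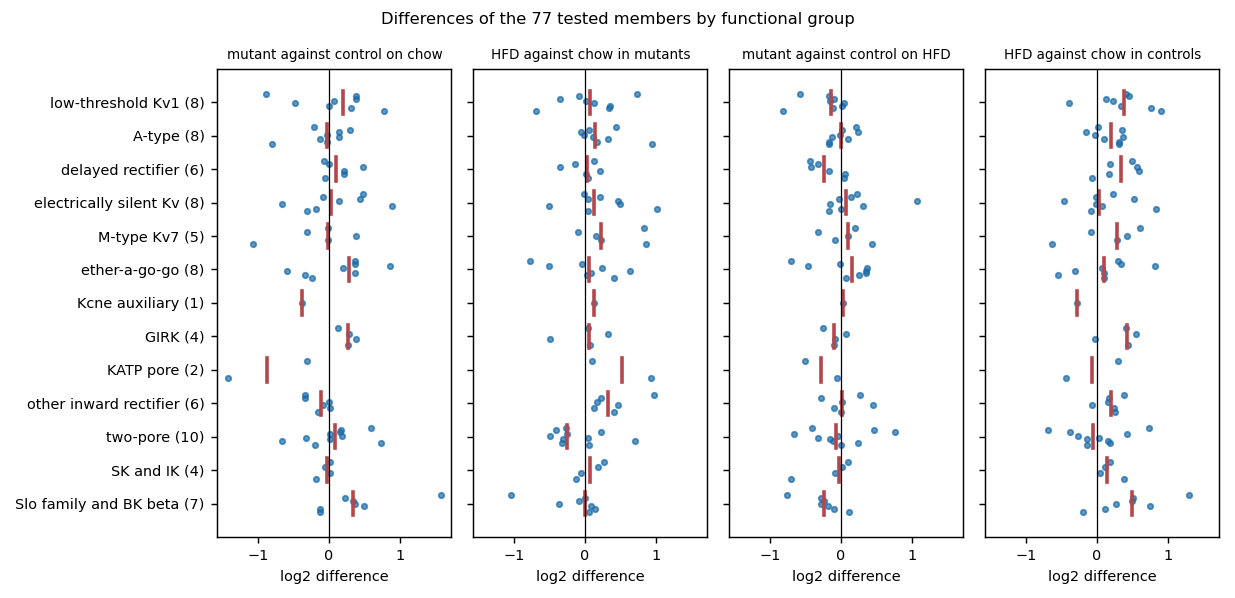
Log2 difference of the 77 tested members in 4 comparisons, by functional group (number of members in brackets), with 1 point per gene and a red bar at the median of its group. Most groups straddle 0, and the points for diet in controls rest on 2 HFD libraries that gave opposite directions.

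Between genotypes on HFD, no member had an unadjusted p under 0.05 (limma), where 2.21% of all genes did, and none passed the adjusted threshold, where 0.00633% did. The smallest unadjusted p was 0.0727, for Kcns1, another silent subunit. The median was -0.05 over the members and -0.01 over all genes. Groups did not overlap for 2 members higher and 6 lower in mutants, beside 15.7% of all genes. Kcnk2 was 64.3 and 74.5 in controls and 63.5, 57.9 and 46.4 in mutants, a difference of -0.32 ± 0.20 (SE; limma, unadjusted p = 0.133). On chow the same gene was 66.9, 77.7 and 60.9 in controls and 49.5, 49.1, 57.4 and 60.9 in mutants, a difference of -0.33 ± 0.16 (SE; limma, unadjusted p = 0.0670). Mutants lay below the controls of their diet, apart from mutant chow replicate 4, which was level with the lowest chow control, and neither difference passed a threshold.

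For the interaction, no member passed the adjusted threshold (limma, Benjamini-Hochberg) and 0% of all genes did. Kcnc2, Kcnh6 and Kcnu1 were the 3 members with an unadjusted p under 0.05, all below 0, beside 3.44% of all genes. All 3 were also those named for genotype on chow, and the interaction uses the same chow libraries.

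Calcium-activated channels, which follow bursts of spikes with a pause, were described by their group means. Kcnma1, the large-conductance BK pore, averaged 17.6 ± 3.69 (SD, n = 3) in chow controls, with mutants at 16.0 ± 3.21 (SD, n = 4). On HFD controls averaged 17.0 ± 11.5 (SD, n = 2), with mutants at 16.5 ± 2.29 (SD, n = 3). The small-conductance SK pores ranked Kcnn2 first at 16.2 on average, then Kcnn3 at 12.7 and Kcnn1 at 2.10. Kcnn2 group means ran from 15.5 to 17.2 and those of Kcnn3 from 11.4 to 13.8. Kcnn1 averaged 3.15 ± 1.63 (SD, n = 2) in HFD controls, with mutants at 1.46 ± 0.183 (SD, n = 3) and no overlap, a log2 difference of -0.70 ± 0.51 (SE; limma, unadjusted p = 0.198). None of the 4 SK and IK genes passed the unadjusted level in any comparison.

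Some members had single libraries far from the rest. These were picked after their values were seen. Kcnk9, a two-pore leak channel, was 2.66 in control chow replicate 2 and 9.46 in mutant HFD replicate 1, against 24.1 to 47.6 in the other 10 libraries. Kcng2, a silent subunit, was 20.2 and 17.5 in mutant chow replicates 2 and 3 and 1.48 to 7.38 in the rest. Kcnq1, an M-type relative best known from heart and ear, was 16.8 in control chow replicate 3 and 7.85 or less elsewhere, and it overlaps an antisense transcript, Kcnq1ot1, that was not analysed here.

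Genes that work with potassium channels were read from 4 lists. Of 12 partner genes, 11 were listed and 10 tested, and none passed the adjusted threshold in any comparison. The same held for 4 of 4 HCN channels, 6 tested sodium channel pores and 10 calcium channel pores. At an unadjusted p under 0.05 (limma) there was 1 partner in each of 4 comparisons and 1 calcium channel pore in each of 4. There were 0 HCN and 0 sodium channel genes in all 6. Of all genes, 2.21 to 5.37% were at that level, depending on the comparison. On chow the partner was Cntnap2, named here after its values were seen. It anchors Kv1 channels beside the node of Ranvier and was 59.7, 79.5 and 73.7 in control chow and 43.0, 50.9, 53.3 and 48.8 in mutant chow, with no overlap. Its log2 difference was -0.52 ± 0.16 (SE; limma, unadjusted p = 0.00631, adjusted p = 0.982). On HFD it was 53.8 and 67.6 in controls and 63.8, 68.7 and 59.3 in mutants, which overlap.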

How the data were processed

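Sequencing libraries were made from total RNA of microdissected ARC with the NEBNext Ultra II kit. Reads were assigned by the authors to mm10 transcripts with Kallisto, summed per gene, and genes were tested with Sleuth; versions are not given in the sources used here. The deposited values are an abundance signal per gene and library, whose exact scaling was not given. Column totals ran from 922172 to 1.255e+06, near the TPM scale, so the values were taken as normalised for gene length and depth. All 12 columns were matched to labels and 0 were left unmapped. Gene types, symbols and positions came from GENCODE M21 (GRCm38).

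The members, groups and gene lists were chosen with earlier results of these data known. Values were taken as log2(value + 1), which understates changes of low genes. Genes with a value of at least 1 in at least 2 libraries (15801) were fitted with limma 3.58.1 in R 4.3.3, with a mean-variance trend and 1 mean per group over all 12 libraries. The tests were two-sided, with Benjamini-Hochberg adjustment over all genes at 0.05, and the fit was tested on simulated data. Genes were named when the unadjusted p was under 0.05 with a mean of at least 1 (up to 4 per direction and comparison), when highest in their functional group, or from a list of GIRK, KATP, M-type, SK, BK and glial genes; other names are said to be picked. Alternatives were other normalisations, filters, pseudocounts, covariates and weights, each library left out in turn, and a replicate block added later. Some members are counted but not reported here by name.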

Additional observations from a re-analysis of the deposited data

Results flagged for a closer look

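Mutant chow values were checked in 31 sets of 4 libraries, 30 for named genes and 1 for the summed signal of the members. In 2 sets 1 value lay far from the other 3, and about 1 in 20 would do so by chance. Kcnq5 was 8.54 in mutant chow replicate 1 and 3.08 to 3.68 in the others. Kcnip1 was 88.0 in replicate 3 and 47.4 to 52.9 in the others, and replicate 3 had the most genes at 0.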

How the results depend on the processing

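No potassium channel gene passed the adjusted threshold in any of 136 fits over 23 alternatives and 6 comparisons; the smallest adjusted p of a member was 0.384 (limma, Benjamini-Hochberg), for Kcnip4 under diet in mutants with array weights. With each library left out in turn, the count of members called was 0 in every comparison. The 14 gene differences named for an unadjusted p kept their sign in 312 of 312 values. They were chosen for a small p in the same data, which by itself makes a change of sign unlikely. Among 3738 values for 166 other pairs of gene and comparison, 296 changed sign and 82 moved by over 1 SE. The members' median was less stable. Without control HFD replicate 1 the median for genotype on HFD was 0.24 in place of -0.05 and that for the interaction 0.32 in place of -0.07; without replicate 2 they were -0.28 and -0.43. Rescaling columns to a common sum moved the median of all genes by 0.13 for diet in controls and by -0.15 for the interaction, and put 50 of 77 members above 0 for genotype on chow, where quantile normalisation put 33 and the deposited scale 41. A fit with a score of 6 oligodendrocyte markers as covariate gave 7 members in place of 3 for genotype on chow at an unadjusted p under 0.05 (limma). For diet in mutants it gave 1 in place of 4. The summed signal of these markers ran from 1244 to 5673 over the libraries. Fits limited to the groups compared do not exist for the interaction and the averaged diet effect. Where control HFD was left with 1 library, that library was assumed to vary like the other groups. The labels give no replicate numbers, but the column headers carry running numbers within groups. Deviations from group means correlated at -0.18 to 0.31 (median 0.0037) over 15 same-numbered pairs of libraries from different groups. Over 38 pairs with different numbers they correlated at -0.31 to 0.31 (median 0.0045). Deviations within a group of 2 to 4 libraries must cancel, so these correlations cannot decide whether the numbers pair the libraries. A fit with these numbers as a replicate block, chosen after seeing the data, called 0 members in all 6 comparisons. At an unadjusted p under 0.05 (limma), the chow genotype comparison then had 6 members in place of 3. The mutant diet comparison had 2 in place of 4. No other library shares the number of mutant chow replicate 4, so the block took up that library. Leaving it out with no block gave the same counts, 6 and 2, and the same member medians, 0.07 and 0.10. With that library out, the groups in these 2 comparisons hold the same numbers, so equal medians follow from the design. They cannot decide whether the numbers pair the libraries. Depth is unknown, so values near 0 carry an unknown counting error.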
